A study of Homo sapiens with 36 samples.

Results

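The genes described here are 9 interferon-stimulated genes, IFIT1, IFIT2, IFIT3, ISG15, MX1, OAS1, IFI6, IFI27 and BST2, followed through every group of a study of 2 human melanoma lines. They were taken by name, as rows carrying those symbols, and the rule used no values. Earlier results of these data were known when the genes were chosen. The first of the study's 2 tables held 8 of the 9 among its 13364 genes, with no row for IFI27. The second held all 9 among 13066 genes. A row in either table was held by 13534 genes.

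Interferons are secreted proteins that warn cells of infection. Type I interferons bind a pair of receptor chains, the kinases JAK1 and TYK2 are activated, and transcription factors, STAT2 and IRF9 among them, act in the nucleus to switch on genes that carry an interferon-stimulated response element. The products act at many steps against viruses, and the same genes can be switched on in tumour cells by foreign or misplaced nucleic acid.

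The lines were 501mel and IGR37, melanoma cells grown in RPMI with serum, and the study asked what happens when SCD is blocked. SCD, stearoyl-CoA desaturase, puts a double bond into saturated fatty acids. Each line had 6 groups of 3 libraries, all taken after 48 hours, made from 3' ends of transcripts with the QuantSeq Forward kit. In the first table these were the vehicle DMSO, the inhibitor A939372 at 1 uM (SCDi), a control siRNA (siCTR) and the SCD siRNA siSCD#2. In the second table they were a control siRNA (siCTR_1) and the SCD siRNA siSCD#1, with each siRNA at 20 nM. The labels name no gene as deleted or introduced in any group, and a Mitf-FLAG row in the first table was left out of the tests. Both control siRNAs carry the same treatment label, and whether they are the same oligonucleotide is not given in the sources used here. It is likewise not given whether DMSO cells received a transfection reagent, so an effect of the siRNA and an effect of its delivery cannot be told apart. The labels do not say whether the 3 libraries of a group came from separate cultures, so p-values measure the spread between these libraries, which may be technical.

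To show the element through which the pathway reads these genes, stretches before the start of 4 of them are printed below, from the RefSeq promoter windows (250 bases before to 50 after each start, GRCh38.p14). Capitals mark every match to the core of the response element, GAAANNGAAA, which reads TTTCNNTTTC on the other strand. ISG15 and BST2 carry a pair of overlapping matches, IFIT1 a pair on the opposite strand and IFI6 3 matches.
IFIT1, chr10:89392492-89392544, plus strand: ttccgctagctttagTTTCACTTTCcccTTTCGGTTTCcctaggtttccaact
ISG15, chr1:1013369-1013414, plus strand: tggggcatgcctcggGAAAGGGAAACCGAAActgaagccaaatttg
IFI6, chr1:27672261-27672363, minus strand: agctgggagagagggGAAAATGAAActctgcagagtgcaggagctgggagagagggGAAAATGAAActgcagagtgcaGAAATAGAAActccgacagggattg
BST2, chr19:17405730-17405775, minus strand: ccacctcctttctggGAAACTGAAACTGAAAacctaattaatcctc

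The matches lay 116 and 103 bases before the RefSeq start for IFIT1, 113 and 107 for ISG15, 156 to 93 for IFI6, and 130 and 124 for BST2. Of the 9 genes 8 had a window (all but IFIT2), and 7 of those 8 genes held the core on either strand in at least 1 window. Among all genes with a window the core was held by 391 of 9957 in the first table (3.93%) and by 381 of 9775 in the second (3.9%). OAS1 had no match in its window, which says only that these letters were not there. The core was also present in 28 of the 48 other interferon-stimulated effectors that had a window and in 0 of 11 interferon receptors and signalling genes. A match is a description of sequence and not a bound site. Members left out, 385 genes of the first table and 374 of the second held the core. With siCTR against DMSO (called at an adjusted p under 0.05 from limma), they were called changed at 10.1% in 501mel and 14.5% in IGR37, where all genes with a window were called at 11.9% and 15.9%. With SCDi the shares were 0.519% (1 higher and 1 lower) beside 0.281% in 501mel and 43.6% beside 45.4% in IGR37. With siSCD#2 they were 38.4% beside 39.6% in 501mel and 43.6% beside 47% in IGR37, and with siSCD#1 48.7% beside 44.4% and 36.4% beside 37.8%. By direction, more genes with the core rose than fell with siSCD#1, 101 against 81 in 501mel (median log2 change 0.07, beside 0.00 for all genes with a window) and 85 against 51 in IGR37 (0.11 beside -0.02). In IGR37 97 rose and 71 fell with siSCD#2 (0.09 beside 0.01), and 96 rose and 72 fell with SCDi (0.04 beside 0.00). All genes there rose at 23.2% and fell at 22.7% with siSCD#2, and at 20.9% and 23.1% with SCDi. In 501mel 75 rose and 73 fell with siSCD#2 (0.02 beside 0.00), where 18.3% of all genes rose and 19.5% fell. With siCTR 15 rose and 24 fell in 501mel (-0.02 beside 0.00) and 24 rose and 32 fell in IGR37 (-0.03 beside -0.01). Of all genes 4.74% rose and 6.57% fell with siCTR in 501mel, and 6.46% rose and 8.99% fell in IGR37. These are counts, shares and medians, and no test of the class was made.

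Libraries held 4078450 to 6685898 gene reads where DMSO, SCDi, siCTR and siSCD#2 were measured and 2402788 to 7483010 in the other table. Added spike-in RNA took 2.43 to 7.21% and 3.76 to 5.71% of all reads. The spike-in share was 5.05 to 7.21% in the siSCD#2 libraries and 3.81 to 5.08% in their siCTR controls. Depth was lower with siSCD#1 (2402788 to 5375599 reads) than with siCTR_1 (4146308 to 7483010), and the part of either difference in the results below was not tested. SCD itself fell by 4.33 ± 0.16 (SE) on the log2 scale with siSCD#2 in 501mel and by 4.15 ± 0.16 in IGR37. With siSCD#1 it fell by 2.85 ± 0.07 and 2.67 ± 0.07 (n = 3 libraries per group, adjusted p at most 1.29e-15 and 1.03e-12). The siSCD#2 libraries of IGR37 differed most among themselves in this check, with SCD at 6.52, 5.32 and 6.09 log2 CPM. All 8 pigment cell markers had rows, summing to 3039 to 7126 CPM per library, the markers that the label melanoma cell line calls for. Of 8 blood cell markers 1 had a row, CD68, at 3.84 to 90.1 CPM.

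Read depth sets the precision, and it was low for several of the 9 genes. Values are CPM (library-scaled reads as the authors normalised them) and log2 CPM as deposited. IFI6, ISG15, IFIT3 and BST2 were read at medians of 148, 72.5, 70 and 30.5 reads per library in the first table. IFIT1, IFIT2, MX1 and OAS1 had medians of 5, 5, 8 and 9 reads there, and IFI27 a median of 2 in the second table. For a library with 0 reads the limit set by 3 reads was 0.416 to 0.720 CPM with the inhibitor and siSCD#2 series and 0.388 to 1.19 CPM with the siSCD#1 series (counting error only). LIPA, a lysosomal lipase with its own row, overlaps IFIT1, IFIT2 and IFIT3 on the opposite strand in GENCODE 29, and antisense genes without a row overlap ISG15, MX1, OAS1 and IFI6. Whether the authors' counting used strand, and how reads shared between members of the IFIT, OAS and MX families were assigned, is not given in the sources used here. Values of those genes are uncertain to that extent.

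**Figure D1:**
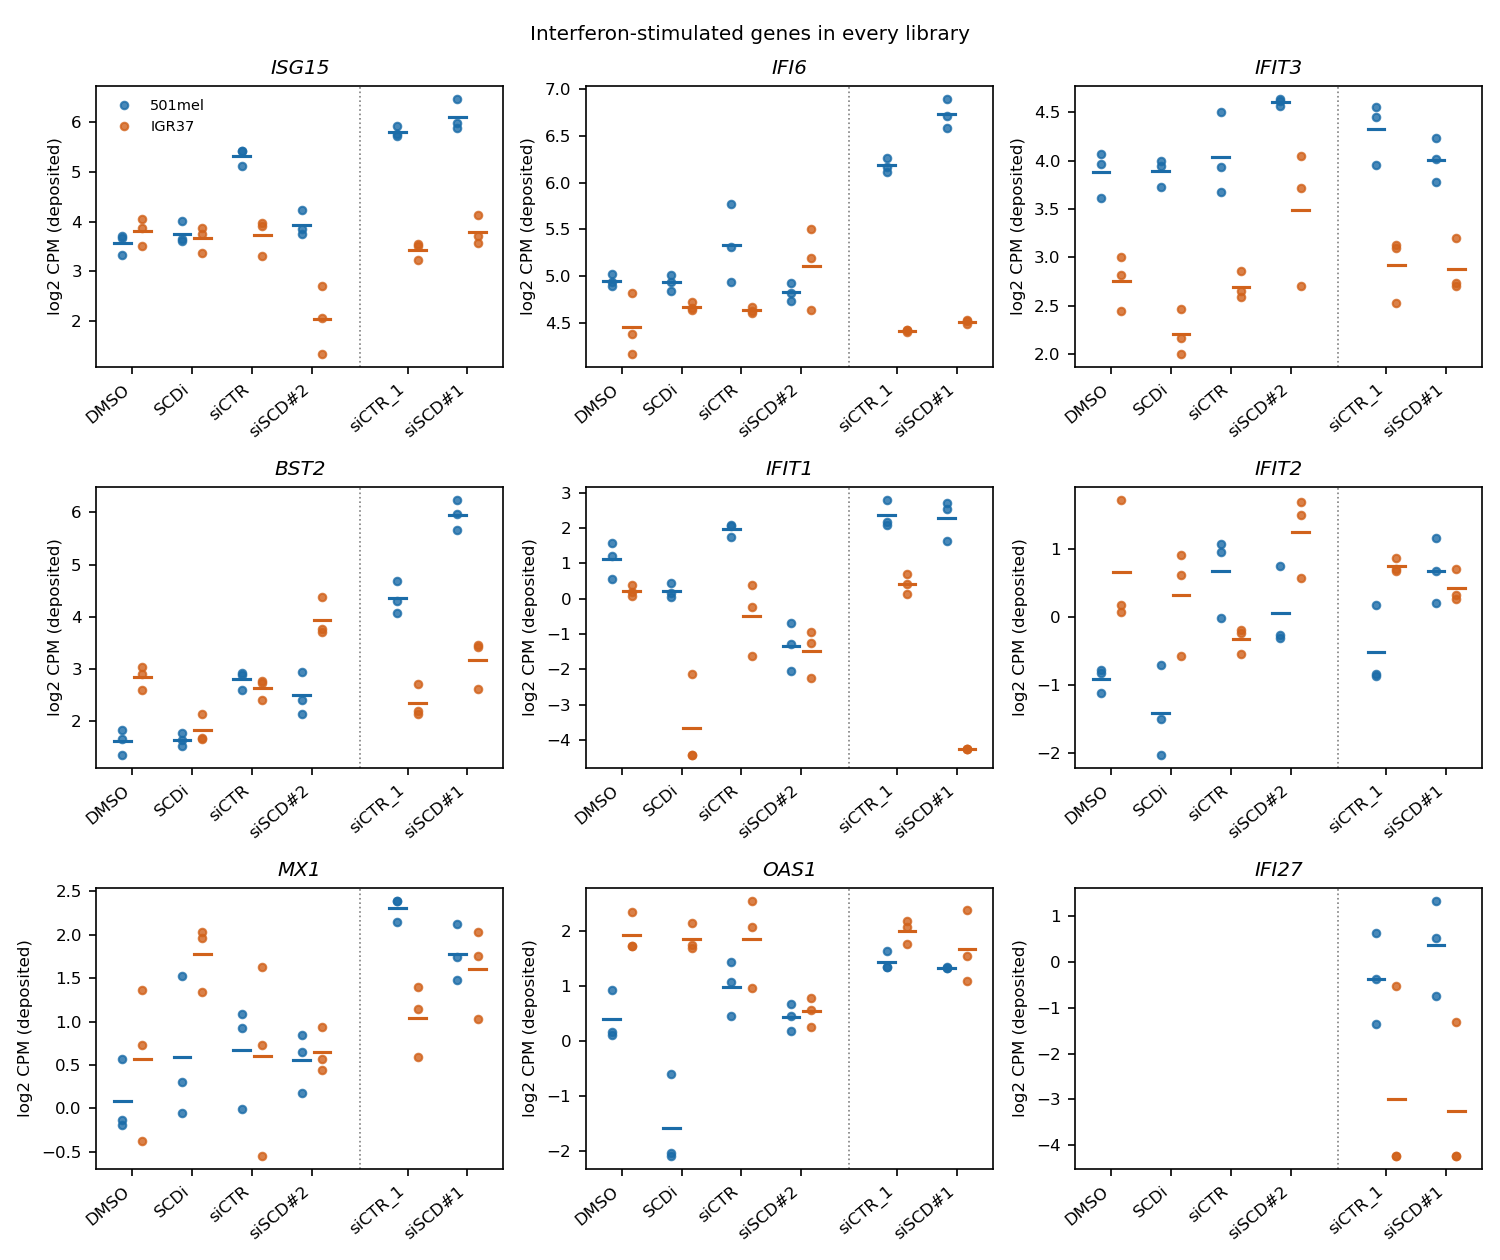
Each panel plots 1 gene as deposited log2 CPM (vertical axis, its own range per panel) in every library by treatment group, with 501mel in blue and IGR37 in orange. Points are libraries, short lines are means of 3, and the dotted line parts the separately normalised tables. ISG15 stands high in all 501mel siRNA groups but siSCD#2, and IFIT1 is at 0 reads in 2 of 3 IGR37 libraries with SCDi and 3 of 3 with siSCD#1.

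The members did not respond as a block to loss of SCD activity. A gene was called where the adjusted p from limma was under 0.05 over all genes of the table. With SCDi 0 of 8 members were called in 501mel (1 at an unadjusted p under 0.05), where 0.292% of all genes were called, 0.232% higher and 0.0599% lower. In IGR37 2 of 8 fell with SCDi and none rose, where 44.1% of all genes were called, 20.9% higher and 23.1% lower. With siSCD#2 3 of 8 fell and none rose in 501mel, beside 37.9% of all genes called, 18.3% higher and 19.5% lower. In IGR37 4 rose and 2 fell with siSCD#2, beside 45.9% of all genes, 23.2% higher and 22.7% lower. With siSCD#1 3 of 9 rose and none fell in 501mel, beside 43% of all genes, 20.9% higher and 22% lower. In IGR37 1 rose and 1 fell with siSCD#1, beside 36.1% of all genes, 16.7% higher and 19.4% lower. In that order 0%, 25%, 37.5%, 75%, 33.3% and 22.2% of the members were called, so of these 6 comparisons siSCD#2 in IGR37 was the one in which their share stood above that of all genes by a wide margin, and 4 of its 6 calls rested on single libraries, as given gene by gene.

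Some members stood higher with siCTR than with DMSO in 501mel, where the siRNA and its delivery cannot be told apart. For siCTR against DMSO 2 of 8 rose and none fell, where 11.3% of all genes were called, 4.74% higher and 6.57% lower. The median change over the 8 members was 0.71 on the log2 scale, beside 0.00 over all genes. For IGR37 0 of 8 were called, by limma or at an unadjusted p under 0.05, where 15.5% of all genes were called, 6.46% higher and 8.99% lower. Since siCTR is the control of siSCD#2 and DMSO the control of both SCDi and siCTR, these comparisons share libraries and are not independent.

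**Figure D2:**
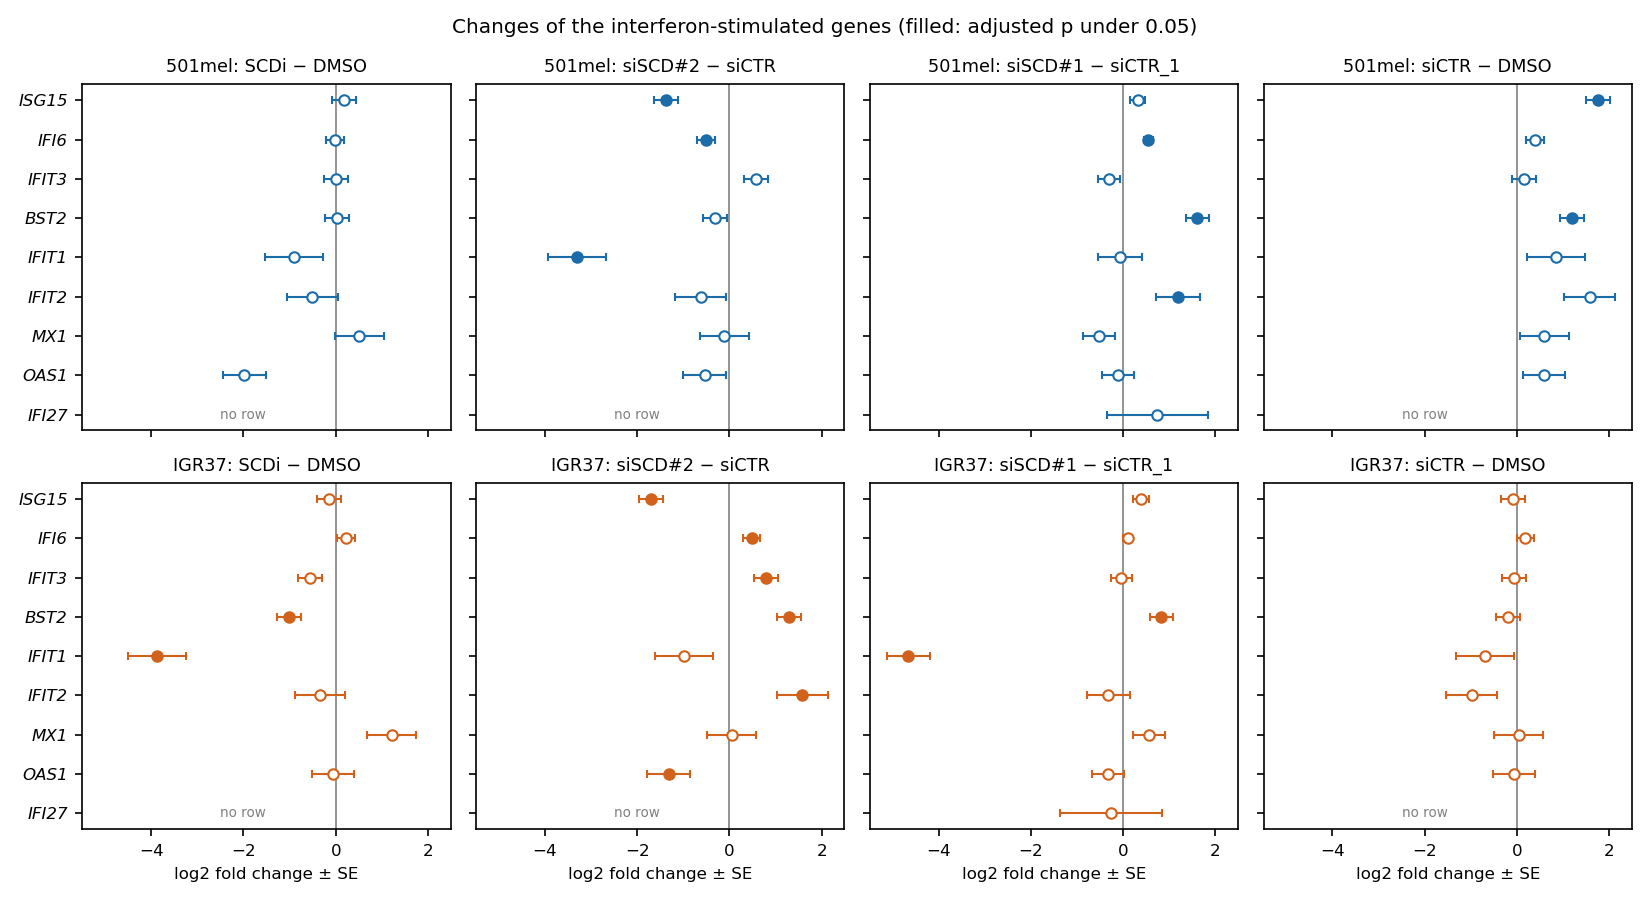
Each panel plots the log2 fold change (horizontal axis) of the 9 genes in 1 comparison, 501mel above and IGR37 below, with the SE from limma as bars. Filled points have an adjusted p under 0.05, and IFI27 has no row in the first table. BST2 lies right of 0 with siSCD#1 in both lines and left of 0 with SCDi in IGR37, and IFIT1 reaches -4.66 in IGR37 with siSCD#1.

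ISG15 encodes a ubiquitin-like protein that is joined to other proteins and also secreted (ENSG00000187608.9, chromosome 1, 1001138 to 1014540, plus strand). In 501mel it stood at 9.95, 12.7 and 12.9 CPM with DMSO, 16, 12 and 12.4 with SCDi, 42.4, 42.4 and 34.5 with siCTR, and 18.7, 13.3 and 14.3 with siSCD#2. The siCTR libraries lay above every other library of the table, and the siSCD#2 libraries lay just above the DMSO libraries. ISG15 thus rose with siCTR against DMSO by 1.75 ± 0.26 on the log2 scale (3.36-fold, adjusted p = 4.16e-05), and fell with siSCD#2 against siCTR by 1.37 ± 0.26 (adjusted p = 0.000145). Set against DMSO instead, a comparison added after seeing the data, siSCD#2 changed ISG15 by 0.38, the opposite direction, with adjusted p = 0.26. That fit and those against siCTR together gave adjusted p from 4.21e-07 to 0.26. So the fall in 501mel was measured from siCTR libraries that stood above DMSO. The comparison of siSCD#2 with DMSO may take in siRNA, its delivery and loss of SCD together, and their parts were not tested.

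In IGR37 ISG15 was at 14.6, 11.4 and 16.5 CPM with DMSO, 14.7, 10.2 and 13.4 with SCDi, 9.79, 15.7 and 15 with siCTR, and 4.12, 6.48 and 2.46 with siSCD#2. Here siCTR overlapped DMSO and the siSCD#2 libraries were below all others. The fall against siCTR was 1.70 ± 0.26 on the log2 scale (to 0.309 of the control, adjusted p = 7.07e-06), and it was called under every alternative, DMSO as the control included (adjusted p 1.36e-07 to 0.0199). Over the 8 groups of the first table, the order of ISG15 means was 501mel siCTR first and IGR37 siSCD#2 last, with the other 6 groups spread over 9.79 to 18.7 CPM and overlapping their neighbours.

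The other SCD siRNA gave no such fall. ISG15 stood at 52.8, 54.4 and 60.4 CPM with siCTR_1 and at 88.4, 63.1 and 59.2 with siSCD#1 in 501mel. Corresponding values were 9.25, 11.6 and 11.2 against 11.7, 17.5 and 13 in IGR37. The pooled ratio of siSCD#1 to control was 1.28 (95% exact counting interval 1.16 to 1.41) in 501mel and 1.23 (0.992 to 1.52) in IGR37, and limma called neither. The siSCD#1 libraries of IGR37 were above those of siCTR_1, and in 501mel the groups overlapped. ISG15 with siCTR_1 in 501mel was high on the scale of its own table, whose normalisation is separate, and that table holds no DMSO group.

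**Figure D3:**
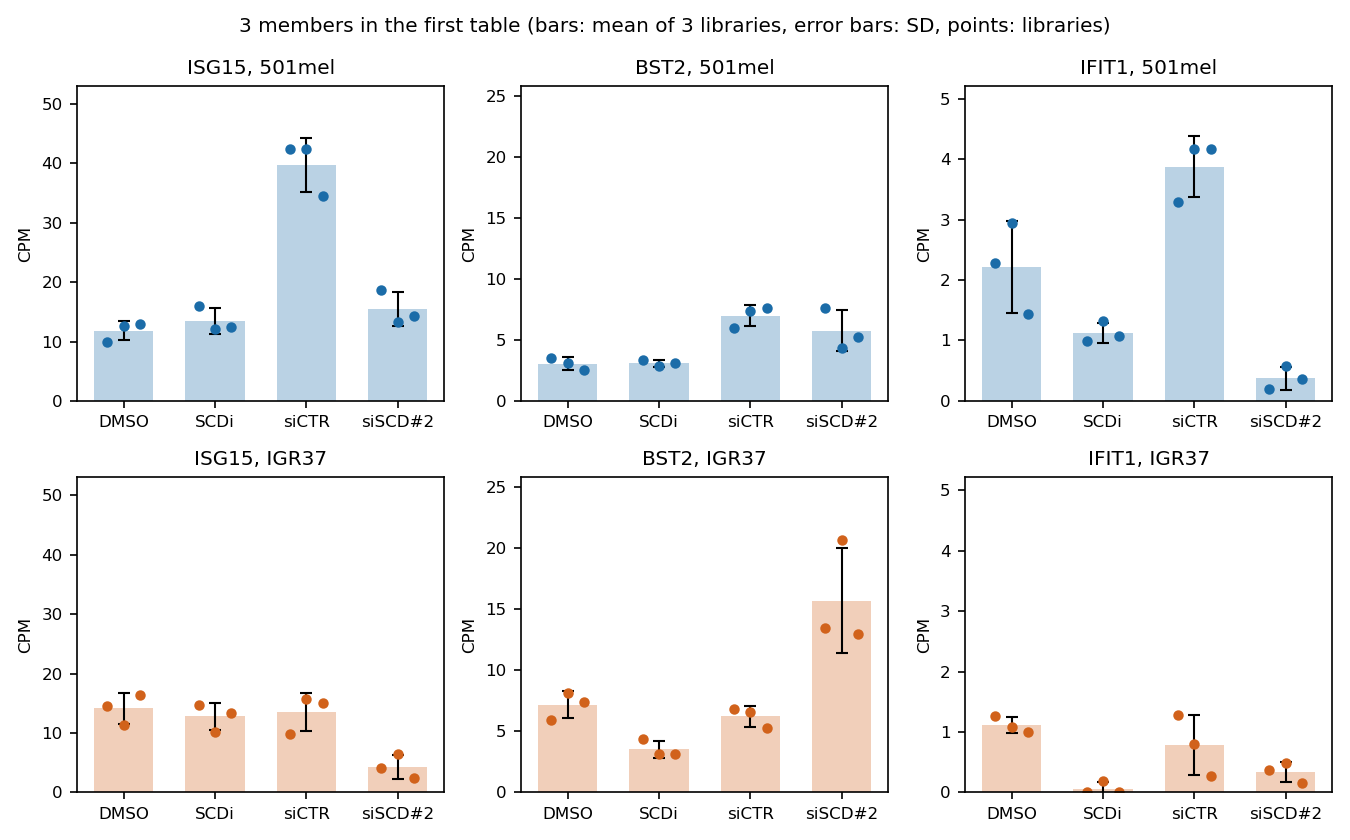
Bars show the mean CPM (vertical axis from 0) of ISG15, BST2 and IFIT1 in the 4 groups of the first table, with SD as error bars and the 3 libraries as points, 501mel above and IGR37 below. ISG15 in 501mel peaks with siCTR at 34.5 to 42.4 CPM and lies at 13.3 to 18.7 with siSCD#2, near DMSO, while in IGR37 siCTR overlaps DMSO.

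BST2 encodes tetherin, which holds budding virus particles at the cell surface (ENSG00000130303.12, chromosome 19, 17402939 to 17405648, minus strand). In 501mel the second table read it at 25.6, 16.9 and 19.8 CPM with siCTR_1 and at 75.5, 62.3 and 50.6 with siSCD#1. The groups were far apart. BST2 rose by 1.60 ± 0.25 on the log2 scale (3.03-fold, adjusted p = 7.79e-05), and stayed called under every alternative (2.62e-08 to 0.00166).

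With the other reagents BST2 behaved differently in 501mel. It was at 3.52, 3.12 and 2.51 CPM with DMSO, 3.37, 2.82 and 3.07 with SCDi, 5.97, 7.38 and 7.58 with siCTR and 7.61, 4.37 and 5.26 with siSCD#2. Both siRNA groups lay above both others and overlapped each other. The rise with siCTR over DMSO was 1.19 ± 0.26 on the log2 scale (2.28-fold, adjusted p = 0.00306). BST2 with siSCD#2 was not called against siCTR, at a pooled ratio of 0.817 (0.611 to 1.09), and was higher against DMSO by 0.88 (adjusted p = 0.0078). That fit and those against siCTR together gave adjusted p from 0.0078 to 0.768, and no other fit against DMSO was run.

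In IGR37 BST2 was at 5.95, 8.12 and 7.43 CPM with DMSO and 4.35, 3.11 and 3.19 with SCDi. It fell by 1.01 ± 0.26 on the log2 scale (to 0.497 of DMSO, adjusted p = 0.00233), and the fall was called under every alternative tried. The siCTR libraries, at 6.81, 6.62 and 5.27, overlapped DMSO. The siSCD#2 libraries, at 13.5, 20.6 and 13, were above every other IGR37 library of the table, a rise over siCTR of 1.30 ± 0.26 (2.47-fold, adjusted p = 0.000182) that was also called throughout. So in 1 line BST2 fell with the inhibitor and rose with the siRNA to the same gene.

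For siSCD#1 in IGR37 BST2 read 11, 10.7 and 6.05 CPM against 6.49, 4.36 and 4.52 with siCTR_1. The groups overlapped at their edges. The rise of 0.82 ± 0.25 (1.77-fold, adjusted p = 0.0164) was lost when any of 4 libraries was left out, siCTR_1 replicate 2 or 3 or siSCD#1 replicate 1 or 2 (0.67 to 0.74, adjusted p 0.0537 to 0.0746), and when the 2 groups were fitted alone (0.0889).

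IFIT1 encodes a protein that binds RNA without the cell's own cap marks and blocks its translation (ENSG00000185745.9, chromosome 10, 89392546 to 89406486, plus strand). Counts per library were 7, 6 and 5 reads with DMSO in IGR37 and 0, 1 and 0 with SCDi. Pooled, the ratio was 0.0595 (0.00143 to 0.377), and the groups did not overlap. With siSCD#1 there were 0 reads in all 3 libraries against 8, 8 and 8 with siCTR_1, a level at least 4.93-fold lower (floor of 3 reads over the group).

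Fitted changes of IFIT1 in IGR37 were -3.87 ± 0.63 with SCDi (adjusted p = 1.6e-05) and -4.66 ± 0.47 with siSCD#1 (adjusted p = 1.51e-06). Their size depends on the prior count of 0.25 because the treated groups are at or near 0 reads. With siSCD#2 IFIT1 had 2, 2 and 1 reads against 6, 5 and 2 with siCTR. Those groups overlapped, the ratio was 0.446 (0.125 to 1.33), and the change was not called against siCTR. With DMSO as the control it was -1.69 (adjusted p = 0.0334). That fit and those against siCTR together gave adjusted p from 0.0334 to 0.559.

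In 501mel IFIT1 gave 11, 17 and 8 reads with DMSO, 5, 7 and 7 with SCDi, 16, 22 and 22 with siCTR, and 1, 3 and 2 with siSCD#2. The SCDi libraries lay below those of DMSO, at a pooled ratio of 0.506 (0.274 to 0.905), and limma did not call the change. The siSCD#2 libraries lay below all others of the line, and siCTR (3.29 to 4.17 CPM) lay above DMSO (1.43 to 2.95). IFIT1 fell with siSCD#2 by 3.31 ± 0.63 on the log2 scale against siCTR (adjusted p = 0.000159), and by a pooled ratio of 0.097 (0.0342 to 0.224). Against DMSO the pooled ratio was 0.169 (0.0583 to 0.406). With siSCD#1 it stood at 3.02, 5.74 and 6.45 CPM beside 4.47, 6.91 and 4.21 with siCTR_1, overlapping, at a ratio of 0.941 (0.654 to 1.34). LIPA, which overlaps IFIT1 on the other strand, rose with siSCD#2 by 0.50 ± 0.14 in 501mel and 1.09 ± 0.14 in IGR37, with SCDi by 0.60 ± 0.14 in IGR37, and with siSCD#1 by 0.80 ± 0.15 in 501mel. With siSCD#1 in IGR37 its change was 0.24 ± 0.15 (adjusted p = 0.229), so LIPA was not called lower where IFIT1 fell.

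IFIT2 (ENSG00000119922.9, chromosome 10, 89283694 to 89309276) and IFIT3 (ENSG00000119917.13, chromosome 10, 89327894 to 89340971), plus strand neighbours of IFIT1 that form complexes with it, did not follow it. IFIT3 was at 7.24, 5.97 and 6.24 CPM with siCTR in IGR37 and at 13.1, 6.48 and 16.6 with siSCD#2. Replicate 2 lay among the controls and the other libraries above them. IFIT3 rose by 0.79 ± 0.26 (1.73-fold, adjusted p = 0.0145), a call lost without siSCD#2 replicate 1 (0.68, adjusted p = 0.066) or the unnumbered library (0.51, 0.127), within a range of 0.000132 to 0.225 over all alternatives. LIPA rose in the same comparison by 1.09, and its part in the IFIT3 reads was not tested.

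For IFIT3 in 501mel the siSCD#2 libraries, at 25, 24.5 and 23.8 CPM, were above those of siCTR, at 12.8, 15.3 and 22.6, and the change of 0.57 ± 0.26 missed the threshold (adjusted p = 0.0852). It passed without siCTR replicate 3 (0.80, adjusted p = 0.0281), with voom weights (0.56, adjusted p = 0.0223) and with DMSO as the control (0.73, adjusted p = 0.0261), within a range of 0.0223 to 0.316 over all alternatives. With SCDi in IGR37 IFIT3 was at 3.94, 5.49 and 4.46 CPM beside 7.94, 7.04 and 5.42 with DMSO, overlapping at 1 library, a change of -0.55 ± 0.26 (adjusted p = 0.0901). In the remaining treatment comparisons the libraries of IFIT3 overlapped between groups.

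IFIT2 was read 3, 5 and 6 times with siCTR and 17, 6 and 17 times with siSCD#2 in IGR37. It rose by 1.58 ± 0.55 (2.98-fold, adjusted p = 0.0208), but not without siCTR replicate 1, siSCD#2 replicate 1 or the unnumbered library (1.36 to 1.46, adjusted p 0.0614 to 0.0835). With DMSO as the control the change was 0.60 and was not called (adjusted p = 0.406, the top of a range from 0.00542 whose other fits were against siCTR). The DMSO libraries of IGR37 had 6, 18 and 5 reads. In 501mel it had 6, 3 and 2 reads with siCTR_1 and 4, 8 and 5 with siSCD#1, a rise of 1.19 ± 0.47 at the edge of the threshold (adjusted p = 0.0499). That call was lost without siCTR_1 replicate 2 or 3 or siSCD#1 replicate 2 or 3 (0.95 to 1.20, adjusted p 0.0883 to 0.164). For siCTR against DMSO in 501mel the reads were 10, 10 and 5 against 2, 3 and 3, above in every library, at 1.58 ± 0.55 and adjusted p = 0.0637. Without siCTR replicate 3 it passed (1.92, adjusted p = 0.0465, range over all alternatives 0.0465 to 0.205).

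OAS1 makes the 2-5A messenger that activates RNase L when it meets duplex RNA (ENSG00000089127.12, chromosome 12, 112906777 to 112933222, plus strand). Its reads in IGR37 were 9, 36 and 30 with siCTR and 9, 6 and 7 with siSCD#2, or 1.92, 5.81 and 4.16 CPM against 1.69, 1.44 and 1.15. The change was -1.32 ± 0.46 (adjusted p = 0.0193), and it lost its call without siCTR replicate 2 (-0.98, adjusted p = 0.122), siCTR replicate 3 (-1.22, 0.0642) or the unnumbered siSCD#2 library (-1.18, 0.0691), within 0.00293 to 0.126 over all alternatives. In 501mel OAS1 gave 9, 6 and 6 reads with DMSO and 1, 1 and 4 with SCDi. These groups did not overlap, the pooled ratio was 0.274 (0.0904 to 0.701), and the change of -1.98 ± 0.46 missed the threshold (adjusted p = 0.0619). It passed without SCDi replicate 3 (-2.47, adjusted p = 0.0186, range 0.0186 to 0.289).

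MX1 encodes a GTPase that blocks virus particles inside the cell (ENSG00000157601.13, chromosome 21, 41420304 to 41459214, plus strand), and was called in none of the 8 treatment comparisons. Its nearest approach was SCDi in IGR37, with 12, 21 and 19 reads against 4, 14 and 8 with DMSO. The groups overlapped, and the change was 1.21 ± 0.53 (adjusted p = 0.0694). Without DMSO replicate 2 it passed (1.60, adjusted p = 0.0316, range over all alternatives 0.0269 to 0.33).

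IFI6 encodes a membrane protein that opposes cell death and virus replication sites (ENSG00000126709.14, chromosome 1, 27666061 to 27672218, minus strand), and was the most deeply read of the 9. In 501mel it was at 72.1, 77.4 and 69.5 CPM with siCTR_1 and 96.4, 104 and 119 with siSCD#1. The groups were apart, and the rise was 0.54 ± 0.10 (1.46-fold, adjusted p = 0.000343), called under every alternative. In IGR37 it was at 21.1, 21.3 and 21.3 CPM with siCTR_1 and 22.9, 22.3 and 23.1 with siSCD#1, apart by little, and was not called.

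For siSCD#2 IFI6 moved in opposite directions in the lines. In 501mel it was at 30.5, 54.5 and 39.6 CPM with siCTR and 30.2, 28.1 and 26.5 with siSCD#2, a fall of 0.51 ± 0.19 (adjusted p = 0.0304). That call went without siCTR replicate 2 (-0.30, adjusted p = 0.24) or 3 (-0.53, 0.0577), and without siSCD#2 replicate 2 (-0.51, 0.0674) or 3 (-0.47, 0.0925). The value against DMSO was -0.13 (adjusted p = 0.624, the top of a range from 0.00504 whose other fits were against siCTR). In IGR37 it was at 24.5, 24.2 and 25.4 CPM with siCTR and 36.4, 25 and 45.3 with siSCD#2, a rise of 0.48 ± 0.19 (adjusted p = 0.0357) that was lost without any of 5 libraries, siCTR replicates 1, 2 and 3, siSCD#2 replicate 1 and the unnumbered library (0.29 to 0.50, adjusted p 0.0618 to 0.237). SCDi libraries overlapped DMSO in both lines, at 28.5 to 32.3 against 29.7 to 32.5 CPM in 501mel.

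IFI27, a mitochondrial relative of IFI6 (ENSG00000165949.12, chromosome 14, 94104836 to 94116698, plus strand), was near the floor of the second table. It had 4, 2 and 6 reads with siCTR_1 and 5, 2 and 8 with siSCD#1 in 501mel, and 0, 0 and 5 against 2, 0 and 0 in IGR37. The groups overlapped in both lines, and a difference was not detectable at this depth.

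The lines differed from each other in these genes, and the differences depended on which control group was read. Under DMSO, BST2 (by 1.22 ± 0.26), OAS1 (1.52 ± 0.46) and IFIT2 (1.56 ± 0.55) were higher in IGR37 and IFIT3 (-1.13 ± 0.26) and IFI6 (-0.50 ± 0.19) lower, 5 of 8 called beside 60.8% of all genes, 31.1% higher and 29.7% lower. The IFI6 and IFIT2 calls were lost without IGR37 DMSO replicate 2 (-0.46, adjusted p = 0.0678, and 1.03, adjusted p = 0.135), and that of IFI6 also without IGR37 DMSO replicate 1 (-0.35, 0.142) or 501mel DMSO replicate 3 (-0.46, 0.0679). Ranges over all alternatives were 0.00489 to 0.142 for IFI6 and 0.00999 to 0.147 for IFIT2. With siCTR none was higher and 4 of 8 were lower in IGR37, where 62.6% of all genes were called, 32.1% higher and 30.4% lower. These were ISG15 (-1.58 ± 0.26), IFIT3 (-1.34 ± 0.26), IFIT1 (-2.45 ± 0.63) and IFI6 (-0.71 ± 0.19).

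With siCTR_1 6 of 9 were lower in IGR37 and 1 higher, beside 60.4% of all genes, 31.1% higher and 29.2% lower. ISG15 was lower by -2.38 ± 0.17 (adjusted p = 9.82e-09), BST2 by -2.01 ± 0.25 (3.75e-06), IFI6 by -1.78 ± 0.10 (4.96e-10), IFIT3 by -1.40 ± 0.23, IFIT1 by -1.94 ± 0.47 and MX1 by -1.26 ± 0.35. IFIT2 was higher by 1.26 ± 0.47 (adjusted p = 0.0278), a call lost without any 1 of 5 of the 6 libraries compared (1.09 to 1.30, adjusted p 0.0547 to 0.0839). BST2 was thus higher in IGR37 under DMSO and lower with siCTR_1, in tables normalised apart.

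Whether an effect differed between the lines was tested directly, as the IGR37 effect minus the 501mel effect. For SCDi 1 member was higher and 2 were lower of 8, beside 27.6% of all genes, 12.3% higher and 15.3% lower. For siSCD#2 3 of 8 were higher and none lower, IFIT2, IFI6 and BST2, beside 21.1% of all genes, 11.6% higher and 9.47% lower. For siCTR none was higher and 3 of 8 were lower, IFIT2, ISG15 and BST2, beside 18.8% of all genes, 9.01% higher and 9.79% lower. For siSCD#1 none was higher and 2 of 9 were lower, IFIT1 and IFI6, beside 20.3% of all genes, 10% higher and 10.3% lower. So the rise of ISG15 with siCTR differed between the lines by this test (-1.83 ± 0.36, adjusted p = 0.000725), and so did that of BST2 (-1.38 ± 0.36, 0.00826).

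The members did not share 1 profile. Over the 12 group means, centred within line and table, the 28 pairs among the 8 members with rows in both tables had Pearson r from -0.67 to 0.75 with a median of 0.04, and 17 were above 0. These means share libraries, depth and controls, and are given as description. The mean profile of the 8 was highest with siCTR in 501mel (0.72 above the line's mean, on the log2 scale) and lowest with SCDi in 501mel (-0.50). Among 9671 other genes with a mean log2 CPM of at least 2, the closest profiles over the 12 group means belonged to EFCAB14 (r = 0.92), TOR1B (0.92), VPS54 (0.89), TMEM158 (0.89) and CDC23 (0.87).

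The rest of the pathway was read from 5 further lists. Of 13 interferon ligands and induced chemokines, 0 had a row in the first table and 1 in the second, CXCL10, a chemokine that draws T cells. CXCL10 had 0 reads in all 3 siCTR_1 libraries and 29 reads over the 3 siSCD#1 libraries of 501mel. That is at least 14.3-fold higher (floor of 3 reads over the group). In IGR37 it had 0 reads in all 6 libraries. CXCL10 thus has a row only through the group in which it was high, so no p-value is given for it. No interferon gene itself had a row.

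Receptors and signalling genes had 13 of 15 with rows (not IFNLR1 and IRF7). STAT2, a transcription factor of type I signals, fell with siSCD#2 in 501mel by 1.02 ± 0.13 (adjusted p = 1.27e-06). In IGR37 STAT2 rose with SCDi by 1.01 ± 0.13 (9.4e-07), with siSCD#2 by 0.52 ± 0.13 (0.00238) and with siSCD#1 by 0.95 ± 0.11 (5.65e-06). IRF9, which binds the response element with it, fell with siSCD#2 in IGR37 by 1.49 ± 0.42 (0.00482) and rose with siSCD#1 by 1.41 ± 0.44 in 501mel (0.0167) and 1.19 ± 0.44 in IGR37 (0.0449). In IGR37 that rise stood on 13 reads over the 3 siSCD#1 libraries and 10 over the 3 of siCTR_1, and it was lost without any 1 of 5 of the 6 libraries, all but siCTR_1 replicate 3 (0.96 to 1.24, adjusted p 0.0701 to 0.144). In 501mel, with 58 reads against 32, the rise of IRF9 was lost without siCTR_1 replicate 2 (1.13, 0.0745) or siSCD#1 replicate 1 (1.27, 0.0614). IRF1, a factor induced by type II interferon, rose with SCDi in IGR37 by 1.36 ± 0.36 (0.00292). For the list of receptors and signalling genes 3 rose and 2 fell with siSCD#2 in 501mel and 5 rose and 2 fell in IGR37, and 5 rose and 2 fell with siSCD#1 in 501mel and 4 and 2 in IGR37. In that order these are 38.5%, 53.8%, 53.8% and 46.2% of the list, beside 37.9%, 45.9%, 43% and 36.1% of all genes.

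Among sensors of foreign nucleic acid and their adaptors, 13 had rows. MAVS, the adaptor of the cytosolic RNA sensors, fell with siSCD#2 by 0.78 ± 0.09 in 501mel and 0.53 ± 0.09 in IGR37, and with siSCD#1 by 0.79 ± 0.08 in 501mel. TICAM1, the adaptor of the endosomal duplex RNA receptor, rose with SCDi by 1.69 ± 0.16 and with siSCD#1 by 1.38 ± 0.11 in IGR37. IFI16, a DNA sensor, rose with siSCD#1 by 1.01 ± 0.09 in 501mel and 0.45 ± 0.09 in IGR37. It was also called higher with siSCD#2 in both lines, in IGR37 at 0.41 to 0.64 with a library left out. In 501mel it was at 0.21 to 0.40. That call was lost without siCTR replicate 3 or siSCD#2 replicate 2 or 3 (adjusted p 0.0512 to 0.156). With siSCD#2 2 of the 13 rose and 5 fell in 501mel and 2 rose and 2 fell in IGR37. These are 53.8% and 30.8%, beside 37.9% and 45.9% of all genes. With siSCD#1 4 rose and 2 fell in 501mel and 5 rose in IGR37, 46.2% and 38.5% beside 43% and 36.1%. With SCDi none was called by limma in 501mel (2 at an unadjusted p under 0.05), and 4 rose and 1 fell in IGR37, 38.5% beside 44.1%. Against DMSO, siCTR changed 1 of the 13 in 501mel (lower) and by limma 0 in IGR37 (also 0 at an unadjusted p under 0.05), 7.69% and 0% beside 11.3% and 15.5% of all genes. Of 11 measured inhibitors of the pathway, siSCD#2 lowered 2 in 501mel and raised 1 and lowered 2 in IGR37, 18.2% and 27.3% called beside 37.9% and 45.9% of all genes.

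Other interferon-stimulated effectors, 56 in the first table and 55 in the second, moved in both directions. With siSCD#2 5 rose and 13 fell in 501mel and 4 rose and 10 fell in IGR37, at medians of -0.24 and -0.21 beside 0.00 over all genes. Called shares were 32.1% and 25%, below the 37.9% and 45.9% of all genes. PLSCR1, an interferon-induced membrane protein, fell by 1.10 ± 0.12 in each line, and DTX3L, a ubiquitin ligase, fell by 1.84 ± 0.12 and 1.70 ± 0.12, while SLFN5 rose by 0.97 ± 0.17 and 0.73 ± 0.17. With siSCD#1 17 rose and 2 fell in 501mel and 10 rose and 2 fell in IGR37, at medians of 0.24 and 0.21, or 34.5% and 21.8% called beside 43% and 36.1% of all genes. PLSCR1 there rose by 0.51 ± 0.12 in 501mel and was not called in IGR37 (-0.19 ± 0.12, adjusted p = 0.234), and SLFN5 rose by 1.18 ± 0.14 and 1.14 ± 0.14. With SCDi none was called by limma in 501mel (6 at an unadjusted p under 0.05), beside 0.292% of all genes, and 6 rose and 8 fell in IGR37, 25% beside 44.1%. In IGR37 SLFN5 rose with SCDi, at 1.64 to 1.83 with a library left out, and PLSCR1 fell, at -0.75 to -0.58. With siCTR against DMSO 6 rose and 3 fell in 501mel, and 3 rose and 4 fell in IGR37, 16.1% and 12.5% called beside 11.3% and 15.5% of all genes. IFITM3, which hinders virus entry, rose with siCTR in 501mel by 0.68 ± 0.10, and DTX3L rose at 0.54 to 0.73 with a library left out. With siSCD#2 against siCTR in 501mel IFITM3 fell, at -0.71 to -0.58. The falls of both genes there were thus measured from siCTR libraries that stood above DMSO. The siRNAs were measured in separately normalised tables against separate control groups, and the difference between their effects was not tested.

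**Figure D4:**
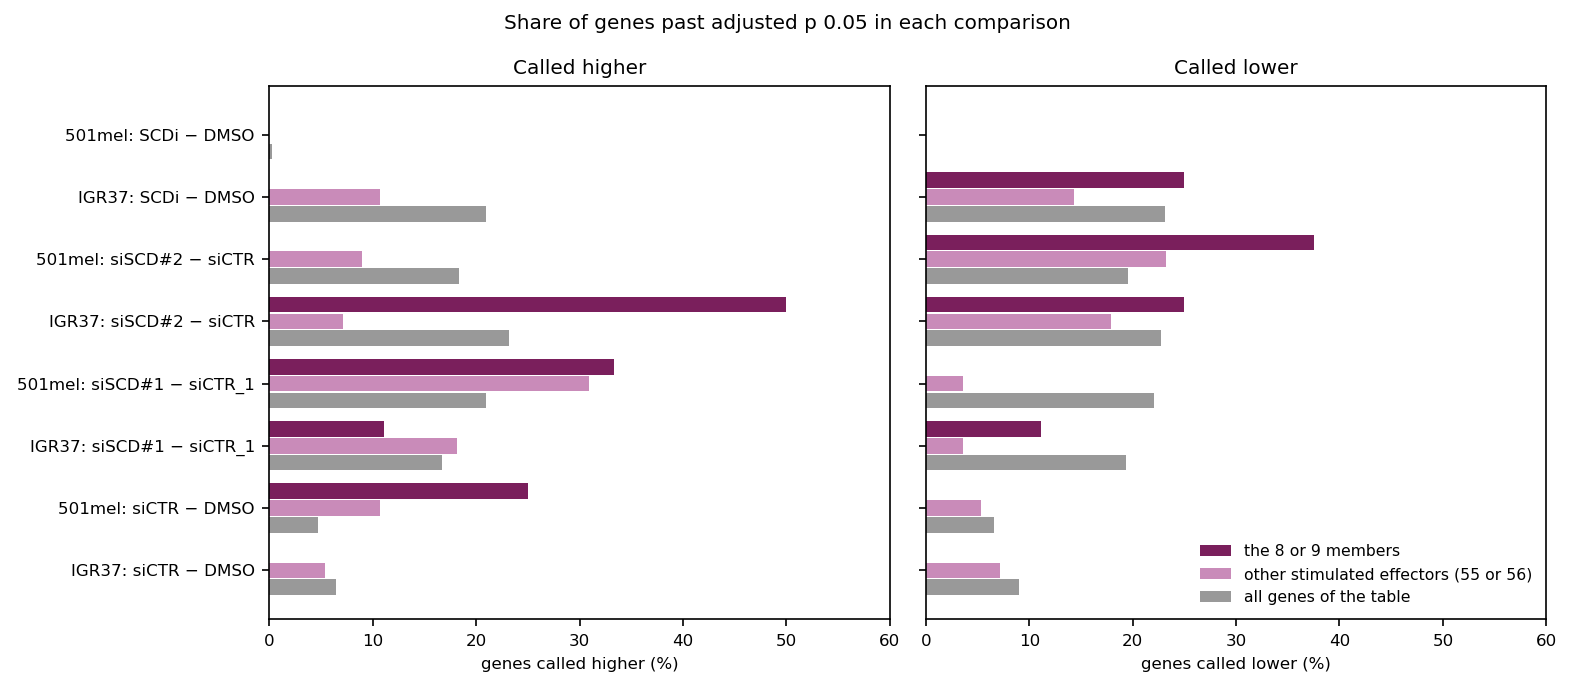
Horizontal bars show the percent of genes called higher (left) and lower (right) at an adjusted p under 0.05 in each of 8 comparisons, for the members, the other interferon-stimulated effectors and all genes of the table. With siCTR against DMSO in 501mel 2 of 8 members are called higher beside 4.74% of all genes, and with siSCD#2 in IGR37 4 of 8 are.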

How the data were processed

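QuantSeq 3' tag libraries of 36 samples were used as 2 tables, which the authors deposited as log2 values per gene symbol. Per the submitters' processing notes the authors aligned reads to hg38 with STAR and normalised them with edgeR, with no versions given. These deposited log2 values follow log2 CPM with a prior count of 0.25, and 100% of them gave a whole number of reads (within 0.01), so read counts per library could be stated. The 66 and 60 spike-ins and 1 Mitf-FLAG row stayed out of the tests.

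The members and all gene lists were chosen with earlier results of these data known. Each table was fitted with limma 3.58.1 in R 4.3.3 (lmFit, contrasts.fit, eBayes with a variance trend) on the deposited log2 values, each group having its own mean and every library of that table sharing the spread. Tests were two-sided, made within a table, and adjusted by Benjamini-Hochberg over all its genes, with a threshold of 0.05. Requiring log2 values over 0 in at least 3 libraries removed no gene. Fold changes are on the log2(value with prior count) scale and understate changes of low genes. Pooled ratios come from the recovered reads with 95% exact intervals that cover counting error only. The fit was tested on simulated data. Besides the members, SCD, STAT2, IRF9 and IRF1 were named, with up to 3 genes of smallest adjusted p per comparison from the other lists. The 5 closest profiles were named too. Some genes that this rule names are not reported here. LIPA and CXCL10 were named for their overlap with IFIT genes and as the measured ligand or chemokine, after values were seen. Coordinates are from GENCODE 29. The last siSCD#2 column of IGR37 is numbered otherwise than its label and was used as an unnumbered library, left out of the replicate block. Alternatives were fitting the compared groups alone, no variance trend, a pseudocount of 1, a stricter filter (log2 above 2), quantile normalisation, median centring, limma's voom weights, a replicate block, leaving out each library, and DMSO as control for siSCD#2. The last was run within each line only, and ranges for siSCD#2 take it in beside the fits against siCTR.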

Additional observations from a re-analysis of the deposited data

Results flagged for a closer look

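Effects on members that differed between the lines by a test of the difference itself (limma, IGR37 effect minus 501mel effect, log2 scale) are listed here, with no cause weighed. For the effect of SCDi 3 of 8 members differed, where 27.6% of all genes did: IFIT1 by -2.97 ± 0.89 (adjusted p = 0.0138), OAS1 by 1.92 ± 0.64 (0.0275) and BST2 by -1.04 ± 0.36 (0.0353). IFIT1 fell to 1 read over the 3 IGR37 libraries, so the size of its difference depends on the prior count, and with a pseudocount of 1 it was -0.40 (adjusted p = 0.339, range over all alternatives 0.00169 to 0.339). The OAS1 difference was lost without any 1 of 6 libraries (1.65 to 1.81, adjusted p 0.059 to 0.0782) and the BST2 difference without any 1 of 7 (-1.04 to -0.90, adjusted p 0.0551 to 0.0894).

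For the effect of siSCD#2 3 of 8 differed (21.1% of all genes): IFIT2 by 2.20 ± 0.78 (adjusted p = 0.0446), IFI6 by 1.00 ± 0.26 (0.00784) and BST2 by 1.61 ± 0.36 (0.00231). The IFIT2 difference was lost without any 1 of 9 libraries (1.98 to 2.26, adjusted p 0.0632 to 0.103). Those of IFI6 and BST2 were called under every alternative run, but DMSO as the control was not run for this difference. Against DMSO the pooled siSCD#2 ratios of BST2 were 1.89 (1.32 to 2.73) in 501mel and 2.12 (1.69 to 2.68) in IGR37. Those of IFI6 were 0.915 (0.803 to 1.04) and 1.67 (1.46 to 1.91).

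For the effect of siCTR against DMSO 3 of 8 differed (18.8% of all genes): IFIT2 by -2.55 ± 0.78 (adjusted p = 0.0219), ISG15 by -1.83 ± 0.36 (0.000725) and BST2 by -1.38 ± 0.36 (0.00826). The IFIT2 difference was lost without 501mel siCTR replicate 1 (-2.35, 0.0564) or IGR37 DMSO replicate 2 (-2.02, 0.0791), and ISG15 and BST2 were called under every alternative run.

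For the effect of siSCD#1 2 of 9 differed (20.3% of all genes): IFIT1 by -4.59 ± 0.67 (adjusted p = 0.000321), with 0 reads in the treated IGR37 libraries, and IFI6 by -0.45 ± 0.14 (0.0341). The IFI6 difference was lost without any 1 of 7 libraries (-0.46 to -0.36, adjusted p 0.0555 to 0.0863).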

How the results depend on the processing

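Of the 18 calls of members in treatment comparisons, 11 held without each library in turn and 7 were lost without at least 1: IFI6 with siSCD#2 in both lines, IFIT2, IFIT3 and OAS1 with siSCD#2 in IGR37, IFIT2 with siSCD#1 in 501mel and BST2 with siSCD#1 in IGR37. IFIT1, IFIT2 and OAS1, at medians of 5, 5 and 9 reads per library in the first table, gave 6 of the 18, of which 3 held. For pathway genes outside the 9, leaving out libraries was added after seeing the data. Of their treatment calls given with a value, only the 2 rises of IRF9 with siSCD#1 and that of IFI16 with siSCD#2 in 501mel were lost. Across settings other than leaving out a library, 479 values kept their direction and side of the threshold, 31 lost a call, 21 gained one and 2 reversed. Leaving out each library in turn kept 370, lost 65 and gained 9. The reversed values were ISG15 (0.38) and BST2 (0.88) with siSCD#2 in 501mel when DMSO was the control. Without a filter every value was the same, because the filter removed no gene, and those values are counted among the 479.

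Counts of called members moved by over 1.5 times as follows. With siSCD#2 in IGR37 the 6 became 3 when only the compared groups were fitted and 2 with the replicate block. The block fit also left out the unnumbered siSCD#2 library. Without that library and with no block, IFIT2, IFIT3, OAS1 and IFI6 lost their calls too (adjusted p 0.0682, 0.127, 0.0691 and 0.237 from limma). With SCDi in IGR37 the 2 became 1 under the stricter filter, which tests fewer genes and drops IFIT1. The SCDi difference between lines went from 3 to 1 with a pseudocount of 1 and to 1 with voom weights. With siSCD#1 in IGR37 the 2 became 1 when only the compared groups were fitted. The siSCD#1 difference went from 2 to 1 with median centring, voom weights or the replicate block. Apart from the filter, the cause was not tested. Equal replicate numbers did not pair libraries (0 of 17 pairs had a correlation over 0.1, and 3 libraries correlated best with their own number), so the replicate block was not used otherwise.

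Leaving out each library gave 0 to 1 called members for SCDi in 501mel, 2 to 3 in IGR37, 2 to 3 for siSCD#2 in 501mel, 2 to 6 in IGR37, 2 to 3 for siSCD#1 in 501mel and 1 to 2 in IGR37. For siCTR against DMSO it gave 2 to 3 in 501mel and 0 to 0 in IGR37. For differences of effect between lines it gave 1 to 3 (SCDi), 2 to 3 (siSCD#2), 2 to 3 (siCTR) and 1 to 2 (siSCD#1), and between lines 3 to 5 under DMSO, 4 to 5 with siCTR and 6 to 7 with siCTR_1. Over all genes, the 39 called with SCDi in 501mel became 8 with the compared groups alone and 17 to 31 with a library left out, the 1511 of siCTR against DMSO in 501mel became 951 and 994 to 1215, and the 2819 of the siSCD#2 difference became 1821 with the compared groups alone.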
